A study of Mus musculus with 14 samples.

Results

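This is a comparison of embryoid bodies (EBs) after 2 days of differentiation towards motor neurons, 1 RNA-seq library labelled *Taf9b* KO against 1 labelled WT. EBs are clusters of cells that form when embryonic stem (ES) cells are grown in suspension, and in this culture they received retinoic acid and an agonist of the sonic hedgehog pathway. *Taf9b* encodes TAF9B, a paralog of a subunit of the core promoter factor TFIID. The compared features are the 11968 loci above 1 FPKM in at least 1 of both libraries, of 23152 loci in the table (51.7%). FPKM, a level of fragments per transcript length, corrects the reads of a gene for its length and for sequencing depth. Each comparison is given as the log2 ratio of FPKM, KO-labelled library over WT-labelled, so that negative values are lower in the KO-labelled library. A locus past 2-fold is called higher or lower.

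The study holds 14 samples, of which 8 are RNA-seq libraries labelled as WT and KO cells in culture (ES cells and EBs of days 2, 4 and 6). The libraries labelled WT are described as coming from a clone of the C57BL/6 line JM8, and those labelled KO from the clone Taf9b_BG10, labelled TAF9B -/-, in which the *Taf9b* coding exons are described as exchanged for a *LacZ-Neo* cassette. The level of *Taf9b*, given below, goes against these labels. By the labels each genotype is 1 clone, so that genotype and clone cannot be told apart. At day 2 each side is 1 library: there is no spread between replicates, no test of the condition was made, and every ratio below compares these libraries. The other tables have libraries of their own, labelled as the same clones, and are no replicates of day 2.

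The depth was estimated from the most common lowest FPKM of single-transcript genes, as the value of 1 fragment. It gave about 37300000 fragments for the WT-labelled library and 31100000 for that labelled KO, a ratio of 0.835. Of 298 gene symbols past 2-fold, 234 had a transcript length, and of these 137 had over 100 estimated fragments in their higher library, 12 had under 30 and 0 had under 10. These are counting limits only, since fragments are not independent cells. The 1 FPKM limit also keeps out most low counts at this depth. The estimate rests on transcript length and is doubtful for small RNA loci, such as *Snord69* with about 5811 and 0 fragments, which is among the 137.

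The cells of both libraries had the marker genes of EBs close to pluripotency. *Pou5f1*, the central pluripotency factor, was at 829 FPKM in the WT-labelled library and 987 FPKM in that labelled KO. *Sox2* was at 172 and 173 FPKM, and *Nanog* at 60.4 and 51.5 FPKM. The epiblast genes *Dnmt3b* (255 and 249 FPKM), *Fgf5* (11.3 and 9.27 FPKM) and *Otx2* (44.4 and 30 FPKM) were also present in both. None of these 6 markers was past 2-fold.

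The targeted gene went against the labels. *Taf9b* (mm9, chromosome X, 103402213 to 103416497) was at 0.516 FPKM in the WT-labelled library and at 4.08 FPKM in the KO-labelled library (log2 ratio 2.98). The same direction was listed in the tables of ES cells (0.537 and 3.06 FPKM), day 4 (1.96 and 4.27 FPKM) and day 6 (1.37 and 4.01 FPKM). The cause was not tested, and all directions here are by label. The gene next to it, *Pgk1*, which encodes a glycolytic enzyme, lies 3.17 kb away and was at 535 FPKM in the WT-labelled library and 252 FPKM in that labelled KO (log2 ratio -1.09). *Pgk1* was lower in the KO-labelled library in the other 3 tables as well, with log2 ratios of -0.55 (ES cells), -2.11 (day 4) and -1.03 (day 6). Of the other expressed neighbours, *Fndc3c1* had a log2 ratio of -0.71, *Atp7a* of -0.39 and *Cox7b* of -0.17, while *Atrx* and *Magt1* were at 0.08 and 0.07.

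In a mouse embryo at the stage that such EBs resemble, Wnt and Nodal signals set up the primitive streak, and its anterior end, the organizer, secretes inhibitors of Wnt, Bmp and Nodal. β-catenin acts with TCF/LEF proteins on Wnt target genes, several of which (*Axin2*, *Sp5*, *Dkk1*) feed back on the pathway. Retinoic acid acts through receptors on paired recognition sites in DNA, and *Cyp26a1*, which encodes an enzyme that breaks down retinoic acid, is a classical direct target. Trophectoderm is the outer epithelium of the blastocyst, which gives rise to the placenta and is rich in keratins.

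*Sp5*, *Dkk1* and *Cyp26a1* were chosen by hand, each with a motif match marked below, and do not stand for the genes furthest apart. *Cer1* (log2 ratio -6.23) and *Lhx1* (-4.69), for example, are not shown. Shown are the promoters of *Sp5*, *Dkk1* and *Cyp26a1*, the 250 bases before the RefSeq start site, 5′ to 3′ on the strand of the gene. In build GRCm38.p6 they are chr2:70474673-70474922 (+ strand) for *Sp5*, chr19:30549497-30549746 (- strand) for *Dkk1* and chr19:37697558-37697807 (+ strand) for *Cyp26a1*. Capitals mark the TCF/LEF motif (CTTTGAT or CTTTGTT, on either strand) in *Sp5* and *Dkk1*, and in *Cyp26a1* a direct repeat of the retinoic acid receptor site (AGGTCA or AGTTCA) with 5 bases between the repeats.
Sp5: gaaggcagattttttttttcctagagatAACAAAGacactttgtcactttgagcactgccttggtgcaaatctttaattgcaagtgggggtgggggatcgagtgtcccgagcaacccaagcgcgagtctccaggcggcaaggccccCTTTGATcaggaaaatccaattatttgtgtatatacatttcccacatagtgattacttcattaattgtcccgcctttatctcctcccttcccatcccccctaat
Dkk1: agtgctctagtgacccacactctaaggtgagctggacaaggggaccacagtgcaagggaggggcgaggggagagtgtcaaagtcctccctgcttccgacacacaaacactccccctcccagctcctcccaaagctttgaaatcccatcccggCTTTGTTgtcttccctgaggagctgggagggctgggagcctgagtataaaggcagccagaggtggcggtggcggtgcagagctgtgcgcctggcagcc
Cyp26a1: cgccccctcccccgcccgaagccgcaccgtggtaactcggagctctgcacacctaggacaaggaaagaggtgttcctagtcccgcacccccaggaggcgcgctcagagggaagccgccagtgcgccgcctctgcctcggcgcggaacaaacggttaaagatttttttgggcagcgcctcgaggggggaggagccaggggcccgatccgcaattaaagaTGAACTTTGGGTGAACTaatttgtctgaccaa

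In *Sp5* the matches lay 222 bases (on the opposite strand) and 104 bases before the start site, in *Dkk1* 98 bases before it, and in *Cyp26a1* 32 bases before it (on the opposite strand). Over all 32851 promoter windows, each the 250 bases before a start site, 8.06% held the TCF/LEF motif and 11 (0.0335%) held the direct repeat. For 7 of the 11 Wnt feedback members there were windows, 11 in all, and 2 of these 11 windows (18.2%) held the TCF/LEF motif, against 7 of 108 (6.48%) for the symbols lower past 2-fold and 8 of 87 (9.20%) for those higher past 2-fold. For 11 of the 18 organizer members there were 13 windows, of which 2 (15.4%) held it, those of *Dkk1* and *Nodal*. A match is a stretch of letters and was not measured as a binding site here.

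Across all members the libraries were close, with as many loci lower as higher. The median log2 ratio was 0.0019, the middle of the distribution from the 25th to the 75th percentile ran from -0.16 to 0.15, and the 5th to 95th percentiles from -0.54 to 0.51. At all sizes of difference 5947 members were lower in the KO-labelled library and 6021 higher. Past 2-fold, 167 members were lower (1.40%) and 142 higher (1.19%), 309 in all. Counted as 1 locus per gene symbol, 161 of 11911 were lower (1.35%) and 137 higher (1.15%). These percentages are the background against which the counts of the gene groups are read.

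Most of the loci past 2-fold had low levels. Of the 2313 members with a mean under 3 FPKM, 7.39% were past 2-fold, and their 5th to 95th percentiles ran from -0.92 to 0.80. The share was 1.54% of 3369 members between 3 and 10 FPKM, 1.34% of 3281 between 10 and 30 FPKM, and 1.40% of 3005 above 30 FPKM, where the percentiles ran from -0.31 to 0.35. Of the 167 lower members, 102 were above 1 FPKM in the WT-labelled library alone, and of the 142 higher members 84 were above 1 FPKM in the KO-labelled library alone; a member that passed the 1 FPKM limit in 1 library only tends to differ by that choice. At the limit itself, the member just inside, *Plppr3*, was at 1.001 and 0.701 FPKM, and the locus just outside at 0.9993 and 0.8267 FPKM.

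**Figure D1:**
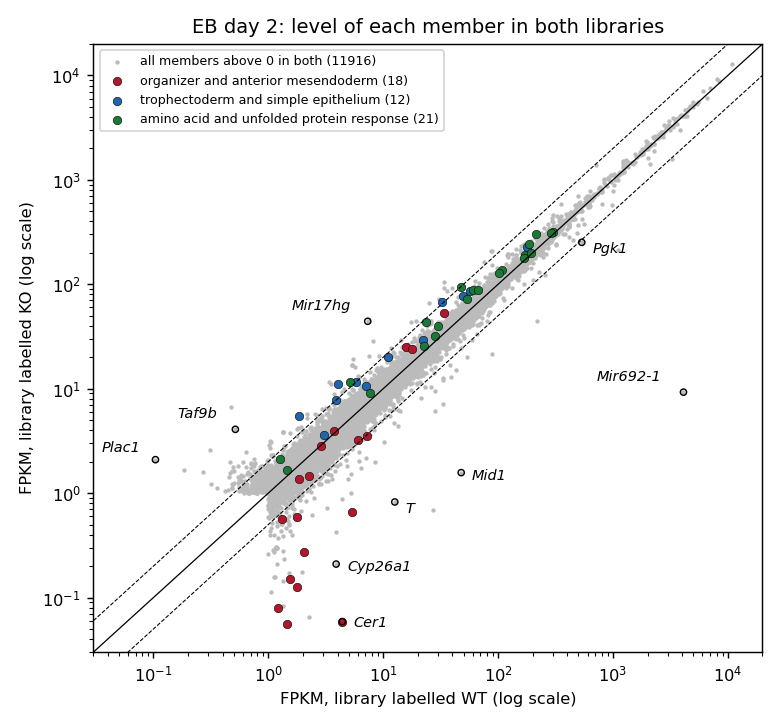
FPKM of each of the 11916 members above 0 in both day 2 libraries, the WT-labelled library on the x axis and the KO-labelled library on the y axis, both on log scales, with a solid line at equal levels and dashed lines at 2-fold. Organizer genes (red, 18 members) reach far below the lower dashed line, while trophectoderm genes (blue, 12) and genes of the amino acid and unfolded protein response (green, 21) lie above the solid line.

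Several genes of the primitive streak and organizer were present in the WT-labelled library and near 0 in the other. Of the 22 genes in the organizer and anterior mesendoderm list, 18 were members, 10 of these were lower past 2-fold and 0 higher, against 1.35% and 1.15% of all symbols. The median log2 ratio of the 18 was -1.13. Of these, 9 were above 1 FPKM in both libraries, with a median of -0.03, and 9 were so in the WT-labelled library only, where they had to be higher. Of the 10 past 2-fold, *Amot* alone was above 1 FPKM in both libraries. The other calls were of genes that passed through the WT-labelled library only, so their count is in part set by the limit. Over all 22 genes without the limit on level, 18 were lower and 4 higher, with a median of -1.15, beside 0.0002 for the 18295 symbols measured above 0. The list was written after a published list for this day had been read, so its direction is not independent evidence.

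*Cer1*, which encodes the secreted inhibitor Cerberus, was at 4.40 FPKM in the WT-labelled library and at 0.0588 FPKM in that labelled KO (log2 ratio -6.23). *Lhx1*, a homeobox factor of the organizer, was at 1.45 and 0.0562 FPKM (-4.69). *Foxa2*, which encodes a factor of the organizer and endoderm, was at 1.79 and 0.125 FPKM (-3.84). These genes thus stood at low to moderate levels in the WT-labelled library and near 0 in the other. *Gsc*, the homeobox gene goosecoid, was at 2.04 and 0.273 FPKM (-2.90), and *Shh*, the ligand sonic hedgehog, at 1.22 and 0.0793 FPKM (-3.94). Among secreted factors, *Fgf8* was at 5.35 and 0.657 FPKM (-3.03), and *Chrd*, the Bmp inhibitor chordin, at 1.31 and 0.560 FPKM (-1.23). *Rspo3*, an enhancer of Wnt signals, and *Amot*, an angiomotin gene with a role in Hippo signalling, completed the set past 2-fold beside *Dkk1*, at 1.78 and 0.588 FPKM (-1.60) and at 7.17 and 3.50 FPKM (-1.03).

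Not every organizer gene shared this direction. *Lefty1*, a Nodal inhibitor, had the highest ratio of the list, at 33.7 FPKM in the WT-labelled library and 52.6 FPKM in that labelled KO (log2 ratio 0.64). *Nodal* itself was at 15.9 and 24.8 FPKM (0.64) and *Lefty2* at 17.7 and 24 FPKM (0.44). *Hhex* was at 3.73 and 3.93 FPKM and *Cxcr4* at 2.85 and 2.80 FPKM. In the list of Nodal and Bmp targets, 11 of 15 members were higher, with a median of 0.42, and *Cer1* was the only one of them past 2-fold.

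Of the 20 genes of the primitive streak and mesoderm list, 8 were members, 3 of them above 1 FPKM in both libraries, 4 in the WT-labelled library only and 1 in that labelled KO only. 4 of the 8 were lower past 2-fold and 1 higher. Each of these was above 1 FPKM only in the library where it was higher. The median of the 8 was -1.76, against -0.56 over those above 1 FPKM in both libraries. Without the limit on level 14 of 20 were lower, with a median of -0.53. *T*, which encodes Brachyury, the T-box factor of the streak, was at 12.6 FPKM in the WT-labelled library and 0.822 FPKM in that labelled KO (log2 ratio -3.94). The other lower genes, *Fgf8*, *Gsc* and *Lhx1*, are also in the organizer list, so that the lists are not separate counts. *Eomes*, the T-box factor that acts beside *T*, was at 2.24 and 1.45 FPKM (-0.63) and *Snai1* at 2.75 and 3.92 FPKM (0.51). *Hand1*, a factor of extraembryonic mesoderm that is also used in trophoblast, went the other way, at 0.272 and 1.59 FPKM (2.54). In bulk samples fewer cells of a type and less RNA per cell cannot be told apart.

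Most of the listed Wnt feedback genes were lower. Of the 15 listed genes 11 were members, 10 of these were lower, 4 past 2-fold, and 0 were higher past 2-fold. Their median log2 ratio was -0.61. Of the 4, *Sp5*, *Dkk1* and *Wnt8a* were members through the WT-labelled library only, and the 8 members above 1 FPKM in both libraries had a median of -0.46. Without the limit on level 13 of 15 were lower with a median of -0.56. *Axin2*, a component of the β-catenin destruction complex, was at 3.16 FPKM in the WT-labelled library and 1.32 FPKM in that labelled KO (log2 ratio -1.26). *Sp5*, a zinc finger factor, was at 1.33 and 0.145 FPKM (-3.19), and the secreted inhibitor *Dkk1* at 1.53 and 0.149 FPKM (-3.36). These are the genes whose TCF/LEF matches are shown above. The ligand gene *Wnt8a* was at 1.5 and 0.498 FPKM (-1.59). The TCF/LEF factors themselves, *Lef1* and *Tcf7*, were at 8.29 and 4.36 FPKM (-0.92) and at 37.5 and 24.6 FPKM (-0.61), not past 2-fold. *Ccnd1*, which encodes cyclin D1, was at 43.0 and 43.1 FPKM.

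Away from the lists, 2 genes of a ligand and receptor pair stood out after their values were seen. *Apln*, which encodes apelin, was at 1.95 FPKM in the WT-labelled library and 0.177 FPKM in that labelled KO (log2 ratio -3.46), and its receptor gene *Aplnr* at 1.33 and 0.0825 FPKM (-4.01). *Aplnr* is a gene of early mesoderm. At day 2 the 2 genes passed the limit on level through the WT-labelled library only. Both were lower in the KO-labelled library also in ES cells, where *Apln* was at 2.66 and 1.5 FPKM and *Aplnr* at 0.530 and 0.00654 FPKM.

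The cultures contained retinoic acid and a hedgehog agonist, and genes of both pathways were measured. *Cyp26a1* was at 3.89 FPKM in the WT-labelled library and at 0.209 FPKM in that labelled KO (log2 ratio -4.22). It was the only retinoic acid gene past 2-fold among 8 members, whose median was 0.19. *Cyp26a1* was above 1 FPKM in the WT-labelled library only, where it had to be higher. Below the limit *Rarb* (-1.58), *Stra6* (-1.06) and *Aldh1a3* (1.56) were also past 2-fold. Over all 22 listed genes without the limit 9 were lower and 13 higher, with a median of 0.25. The receptor genes *Rara* (13.9 and 15.2 FPKM) and *Rarg* (45.6 and 45.3 FPKM) and the binding protein genes *Crabp1* (54.8 and 69.6 FPKM) and *Crabp2* (16.6 and 22.6 FPKM) were close in both. *Cyp26a1* was at 1.19 and 0.193 FPKM in ES cells, at 96.2 and 77.5 FPKM at day 4 and at 173 and 68.0 FPKM at day 6. At day 2 its KO-labelled value was thus near that of the KO-labelled ES cells, which were already lower than those labelled WT. The anterior Hox list had 0 members at day 2.

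Of 12 hedgehog members, 3 were lower past 2-fold and 1 higher, and the median was -0.07. Each of these 4 was above 1 FPKM in 1 library only, the one where it was higher. The lower genes were *Shh*, *Foxa2* and *Gli2*, which encodes the main activator among the Gli factors (1.69 and 0.580 FPKM, log2 ratio -1.54). *Nkx2-9*, a target in the ventral neural tube, was at 0.692 and 1.39 FPKM (1.01). *Gli1*, the usual readout of the pathway, was at 4.67 and 7.64 FPKM (0.71), and the receptor gene *Ptch1* at 9.37 and 7.66 FPKM (-0.29). *Shh* and *Gli1* thus lay on opposite sides of 0.

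**Figure D2:**
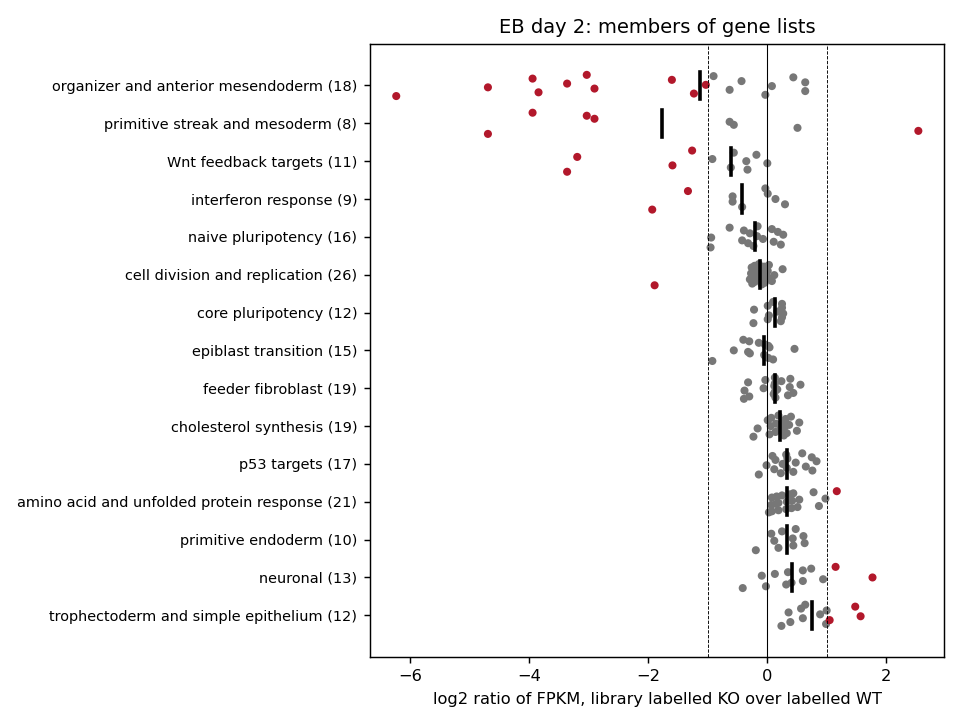
Log2 ratio of FPKM at day 2, KO-labelled library over WT-labelled, of each member (1 point) of 15 gene lists, with list size in brackets, the list median as a black bar, dashed lines at 2-fold and red points past it. Organizer genes spread from -6.23 to 0.64 around a median of -1.13, while all 12 trophectoderm members lie above 0 around 0.76.

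Trophectoderm and simple epithelium genes were the group furthest above equality. All 12 members of this list of 15 were above 1 FPKM in both libraries and all 12 were higher in the KO-labelled library. Their median log2 ratio was 0.76, and 3 were past 2-fold. Over all 15 genes without the limit on level 14 were higher, with a median of 0.64. The keratin gene *Krt7* was at 1.85 FPKM in the WT-labelled library and 5.49 FPKM in that labelled KO (log2 ratio 1.57), and *Krt8* at 32.3 and 67.0 FPKM (1.05). *Ascl2*, a factor needed for the placenta, was at 4.0 and 11.1 FPKM (1.48). Just under 2-fold were *Krt19* (5.78 and 11.5 FPKM) and *Plet1* (3.90 and 7.74 FPKM), and the lowest ratio of the list was that of *Anxa3*, at 3.04 and 3.60 FPKM (0.24). Summed over all 15 genes the level was 377 FPKM in the WT-labelled library and 559 FPKM in that labelled KO, with 0 genes listed at 0. The defining trophoblast factor genes *Elf5* (0.0432 and 0.0334 FPKM) and *Gata3* (0.216 and 0.486 FPKM) were under 1 FPKM in both libraries. So was *Cdx2*, a defining trophectoderm factor gene held in the streak list, which was on the other side at 0.823 and 0.221 FPKM (-1.89). The part of a changed mix of cells in these differences was not tested.

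Some further genes are described one by one. *Nrk*, *Cited1*, *Wnt7b* and *Plaur* are among the 15 largest rises, the others were picked for being higher after their values were seen, and they add nothing to the count of the trophectoderm list. *Plac1*, a placental gene, was at 0.104 FPKM in the WT-labelled library and 2.09 FPKM in that labelled KO (log2 ratio 4.33). *Rhox6* was at 3.74 and 8.87 FPKM (1.24), *Rhox9* at 4.58 and 9.94 FPKM (1.12), and *Nrk*, a kinase gene of the placenta, at 1.01 and 2.88 FPKM (1.52). *Sct*, which encodes the hormone secretin, was at 0.475 and 6.68 FPKM (3.81). All 5 were higher in the KO-labelled library in the ES cell, day 4 and day 6 tables too, with *Plac1* at 4.08 and 20.8 FPKM and *Rhox6* at 27.6 and 148 FPKM at day 6. Higher too were *Cited1*, a transcriptional coregulator (1.04 and 3.16 FPKM), the ligand gene *Wnt7b* (1.06 and 3.10 FPKM) and *Plaur*, the urokinase receptor gene (7.55 and 20.6 FPKM). Part of these have high levels in ES cells, where *Wnt7b* was at 6.28 and 10.7 FPKM and *Plaur* at 24.2 and 26.8 FPKM.

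The primitive endoderm, feeder fibroblast, neuronal and early neural marker lists had medians nearer to 0 than the trophectoderm list, although single genes were further from it. Of 10 primitive endoderm members 9 were higher, with a median of 0.34 and none past 2-fold, and the range was from -0.19 for *Lamc1* to 0.63 for *Sparc* (50.4 and 78.0 FPKM). The defining genes *Gata6* (0.574 and 0.269 FPKM) and *Sox17* (0.767 and 0.110 FPKM, -2.81) were under 1 FPKM in both libraries. Summed over all 20 listed genes the level was 128 and 161 FPKM, and 2 genes were listed at 0 in each library. The 19 feeder fibroblast members had a median of 0.13 and a range from -0.39 for *Dcn* to 0.56 for *S100a4*. Summed over all 21 listed fibroblast genes the level was 151 FPKM in the WT-labelled library and 171 FPKM in the other. Of 13 neuronal members 10 were higher, with a median of 0.41, and 2 were past 2-fold. These were *Vgf*, a neuropeptide precursor gene, at 3.39 and 11.5 FPKM (1.77), and *Gap43*, a growth cone gene, at 2.91 and 6.43 FPKM (1.15). *Prph*, which encodes the neuronal intermediate filament peripherin, was at 36.1 and 85.3 FPKM (1.24) and was named after its values were seen. At day 6 *Gap43* was at 184 and 7.82 FPKM, the opposite direction. Early neural genes had 7 members with a median of 0.15 and none past 2-fold.

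**Figure D3:**
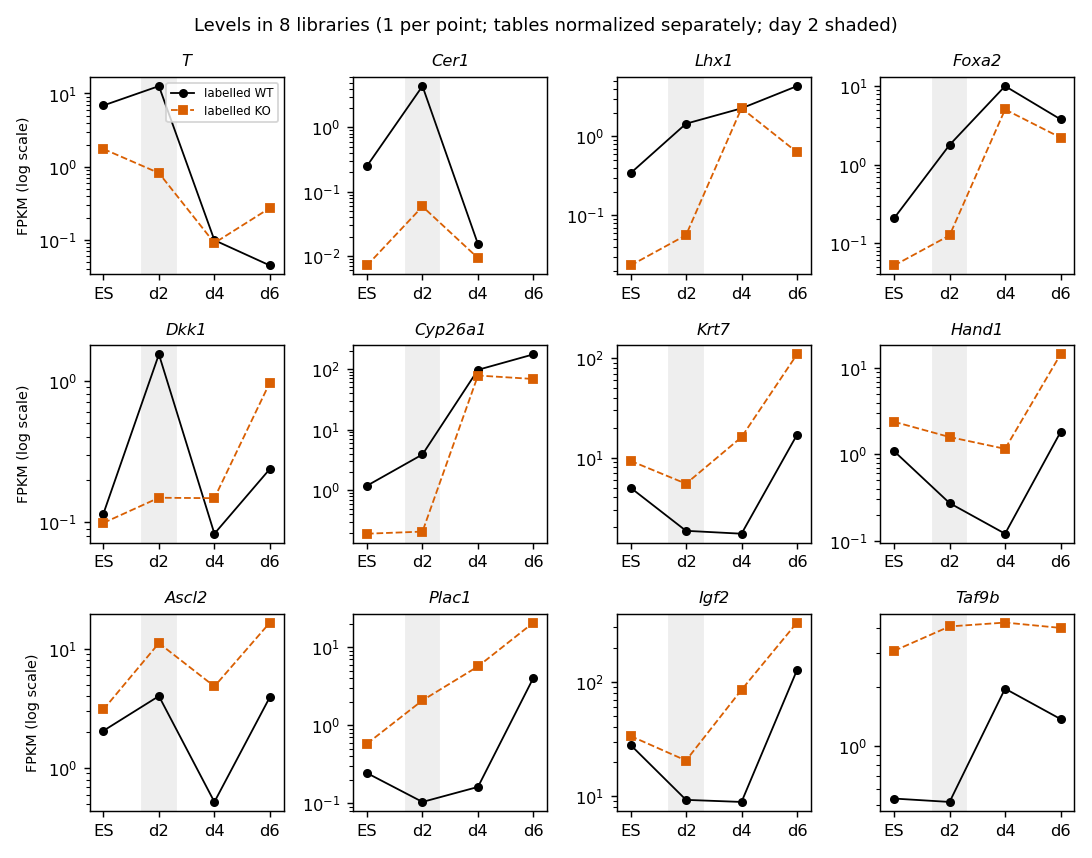
FPKM (log scale) of 12 genes in the 8 culture libraries, 1 library per point, labelled WT as black circles and labelled KO as orange squares, with day 2 shaded and values below 0.001 not drawn; tables were normalized separately. *Cer1*, *Dkk1* and *T* have their highest WT value at day 2, where the libraries are far apart, and *Krt7*, *Hand1*, *Plac1* and *Taf9b* are higher in the KO-labelled library at all 4 times.

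Pluripotency genes were close in both libraries. The 12 core genes had a median of 0.14, with 10 higher and a range from -0.23 for *Nanog* to 0.27 for *Zfp296*. Of 16 naive pluripotency genes 11 were lower, with a median of -0.20 and none past 2-fold. *Zfp42*, the marker gene also called Rex1, had 65.2 and 33.7 FPKM (-0.95). The log2 ratio of *Klf4* was -0.94 (12 and 6.26 FPKM), while *Klf5* was at 37.9 and 45.8 FPKM (0.27). *Zfp42* lies on chromosome 8, whose genes had a median of -0.16 as described below. The 15 genes of the transition to epiblast had a median of -0.05. The 2-cell-like list had 0 members.

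Genes of the amino acid and unfolded protein response were higher by small amounts throughout. All 21 members were higher in the KO-labelled library (median 0.33), and 1 was past 2-fold. This was the stress factor gene *Atf3*, at 5.15 and 11.6 FPKM (1.17). *Trib3*, a pseudokinase gene, was at 47.2 and 93.3 FPKM (0.98), *Cebpb* at 23.6 and 43.1 FPKM (0.87) and the central factor gene *Atf4* at 213 and 305 FPKM (0.51). The lowest ratio was that of *Slc3a2*, at 193 and 198 FPKM (0.03). *Atf5*, a relative of *Atf4* named after its values were seen, was at 24.9 and 66.1 FPKM (1.41). In ES cells 14 of 20 members of this list were lower, with a median of -0.05.

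Target genes of p53, the DNA damage factor, were in like position. Of 17 members 15 were higher, with a median of 0.33 and none past 2-fold. *Mdm2*, the inhibitor of p53, was at 42.8 and 67.0 FPKM (0.65), the cell cycle inhibitor gene *Cdkn1a* at 34.1 and 51.3 FPKM (0.59) and *Plk2*, the highest, at 11.3 and 20 FPKM (0.83). The 14 members of the apoptosis machinery had a median of -0.08. Of 19 genes of cholesterol synthesis 17 were higher, with a median of 0.22 and none past 2-fold, and the lowest ratio was that of *Hmgcs1*, at -0.23.

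Cell division genes were slightly lower. Of 26 members 20 were lower, with a median of -0.12, and 1 was past 2-fold, *Traip*, which encodes a ubiquitin ligase of the replication fork, at 6.4 and 1.73 FPKM (log2 ratio -1.89). The next lowest of these 26, *Mki67*, was at 16.3 and 13.3 FPKM (-0.29), so that *Traip* stood apart from its list. *Traip* was lower in the KO-labelled library in the other 3 tables as well, at 3.60 and 1.95 FPKM in ES cells, 12.2 and 3.57 FPKM at day 4 and 7.0 and 2.57 FPKM at day 6. Of the hypoxia and glycolysis list, *Pgk1* was lower and *Ndrg1*, a stress gene, higher past 2-fold (5.65 and 16.0 FPKM, 1.5), and the 23 members had a median of -0.03. *Myc* was the highest of 18 Fgf and ERK feedback genes, at 8.67 and 15 FPKM (0.79), and *Dusp4*, a phosphatase gene that also lies on chromosome 8, the lowest, at 67.5 and 41.8 FPKM (-0.69).

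Of the 13 germline members 7 were lower and 6 higher, with a median of -0.09, and 2 were lower past 2-fold and 0 higher. Over all 19 measured genes of the list, without the limit on level, 13 were lower and 6 higher, with a median of -0.24. *Sycp3*, a component of the synaptonemal complex, was at 43.1 FPKM in the WT-labelled library and 15 FPKM in that labelled KO (log2 ratio -1.53), and *Tdrkh*, a piRNA pathway gene, at 2.81 and 1.38 FPKM (-1.03). *Stag3*, which encodes a meiotic cohesin, was among the largest falls above 1 FPKM in both libraries, at 7.07 and 2.17 FPKM (-1.70), with *Rpl39l*, a ribosomal protein gene of the testis, at 5.29 and 1.52 FPKM (-1.80). *Ddx4*, *Dazl* and *Piwil2* were on the other side, at log2 ratios of 0.41, 0.33 and 0.22.

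Of 20 imprinted members 1 was lower and 2 were higher past 2-fold. *Grb10*, a growth inhibitor gene, was at 53.4 and 20.1 FPKM (-1.41). The growth factor gene *Igf2* was at 9.27 and 20.5 FPKM (1.15) and *Dlk1* at 0.543 and 1.26 FPKM (1.22). The list had a median of 0.15, and *Meg3*, the noncoding partner of *Dlk1*, was at 30.9 and 19.4 FPKM (-0.67). Of 9 interferon response members 6 were lower, with a median of -0.42, and *Oas1a* (1.17 and 0.306 FPKM, -1.93) and *Isg15* (1.28 and 0.508 FPKM, -1.33) were past 2-fold. Both were above 1 FPKM in the WT-labelled library only, and without them the median was -0.03. *Ifitm3* was at 277 and 342 FPKM (0.30). The 3 expressed Y-linked genes were higher in the KO-labelled library, *Uty* at 2.91 and 5.46 FPKM (0.91), *Ddx3y* at 4.92 and 7.76 FPKM (0.66) and *Eif2s3y* at 23.6 and 30.8 FPKM (0.38).

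Subunits of TFIID, apart from *Taf9b*, and of the SAGA and ATAC coactivators were not past 2-fold. The 16 TFIID members had a median of 0.02, with the lowest ratio for *Taf10* (163 and 134 FPKM, -0.28). The 25 members of SAGA and ATAC had a median of 0.07 and ran from -0.27 for *Supt20* to 0.43 for *Zzz3*. The 14 Notch pathway members had a median of 0.02 and the 9 DNA methylation genes one of -0.06, with the cofactor gene *Dnmt3l* at 143 and 217 FPKM (0.60).

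The largest falls among symbols above 1 FPKM in both libraries were led by *Mir692-1* and *Mid1*. *Mid1*, which encodes a microtubule-associated ubiquitin ligase and lies near the end of the X chromosome, was at 47.7 FPKM in the WT-labelled library and 1.57 FPKM in that labelled KO (log2 ratio -4.92). It was at 17.8 and 2.91 FPKM in ES cells, 147 and 7.5 FPKM at day 4 and 96.5 and 1.93 FPKM at day 6. *Nupl1*, a nuclear pore gene now called *Nup58*, was at 87.9 and 21.4 FPKM (-2.04) at day 2 but at 145 and 287 FPKM in ES cells. *Hddc3* (4.96 and 1.37 FPKM), *Glrx*, a redox enzyme gene (10.2 and 3.10 FPKM), and the noncoding *AA465934* (28.3 and 6.06 FPKM) were also among the 15 largest falls. *Car2*, which encodes a carbonic anhydrase, was named afterwards, at 28.5 and 9.60 FPKM (-1.57).

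Among symbols above 1 FPKM in both libraries, *Mir17hg* had the largest rise. This host transcript of the miR-17-92 cluster of miRNAs was at 7.33 FPKM in the WT-labelled library and 44.2 FPKM in that labelled KO (log2 ratio 2.59), and at 1.97 and 2.28 FPKM in ES cells, 18.9 and 30.8 FPKM at day 4 and 3.29 and 64.4 FPKM at day 6. The libraries were poly-A libraries, which do not hold mature miRNAs. Which transcripts gave the values at these loci was not tested. For each precursor of the cluster 1 mature miRNA is shown from RefSeq, and other listed arms are left out. Also shown is miR-692, whose locus had the largest fall among symbols above 1 FPKM in both libraries. In build GRCm38.p6 the cluster's mature miRNAs lie on the + strand at chr14:115043684-115044496 and miR-692 on the - strand at chr17:6895259-6895279. The chosen miRNAs are printed 5′ to 3′ with the seed (bases 2 to 8), which sets the targets of a miRNA, in capitals.
miR-17-5p: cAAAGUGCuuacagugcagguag
miR-20a-5p: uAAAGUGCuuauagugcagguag
miR-18a-5p: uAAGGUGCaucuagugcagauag
miR-19a-3p: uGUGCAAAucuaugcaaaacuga
miR-19b-3p: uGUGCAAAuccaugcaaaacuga
miR-92a-3p: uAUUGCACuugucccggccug
miR-692: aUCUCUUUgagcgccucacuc

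miR-17-5p and miR-20a-5p share 1 seed, and miR-19a-3p and miR-19b-3p share another, while those of miR-18a-5p, miR-92a-3p and miR-692 are each their own in this set. At the precursor loci of the cluster the table listed 0 in both libraries for *Mir18*, *Mir19a* and *Mir20a*, and 0 and 42.8 FPKM for *Mir17*. *Mir692-1*, 109 bases on chromosome 17 of mm9 from 7099578 to 7099686, was at 4107 FPKM in the WT-labelled library and 9.26 FPKM in that labelled KO (log2 ratio -8.79). The difference was of like direction in ES cells (514 and 6.16 FPKM), at day 4 (7228 and 4.62 FPKM) and at day 6 (2497 and 5.46 FPKM). For loci this short FPKM is set by few positions, and other transcripts that overlap the locus were not separated.

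Loci of small RNAs made up a large part of all calls. Of 136 small RNA members, 30 were lower and 38 higher past 2-fold and 49 were listed at 0 in 1 library. *Snord52* and *Snord69* were listed at 1969 and 1949 FPKM in the WT-labelled library and at 0 in that labelled KO, and *Snord66* was listed at 0 and 643 FPKM. All 10 of the largest rises and all 10 of the largest falls above 10 FPKM were loci listed at 0 in 1 library, all but 1 of them small RNAs. Such loci tie, and there were more than 10 each way, so these are a pick among ties. Without small RNA loci, 137 of 11832 members were lower and 104 higher (2.04% both ways), and the gene groups above hold none of them.

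The loci past 2-fold at day 2 were looked up in the other culture tables, which use other libraries labelled as the same clones. In ES cells 0.584% of symbols were lower and 0.459% higher past 2-fold, at day 4 4.39% and 12.1%, and at day 6 9.91% and 10.5%. Of the 161 symbols lower at day 2, 31 were also lower in ES cells (19.3% of the day 2 list and 44.3% of the 70 of ES cells), 50 at day 4 (31.1% and 9.11%) and 42 at day 6 (26.1% and 3.28%). Of the 137 higher, 14 were also higher in ES cells (10.2% and 25.5% of 55), 59 at day 4 (43.1% and 3.90%) and 74 at day 6 (54.0% and 5.45%). In the opposite direction were 5, 13 and 15 of the lower symbols and 5, 8 and 14 of the higher symbols. The estimated depth differed more between the libraries of those tables than at day 2, with ratios of KO over WT label of 0.221 in ES cells, 1.54 at day 4 and 0.253 at day 6.

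A set of 10 symbols was lower past 2-fold in all 4 tables, and 4 were higher. The lower ones were *Mid1*, *Grb10*, *Fxyd6* (an ion pump regulator gene, at 38.0 and 16.9 FPKM at day 2), *AA465934*, *4930470H14Rik*, the pseudogenes *Gm5779* (27.0 and 0.696 FPKM) and *Olfr856-ps1*, and the small RNA loci *Mir692-1*, *Mir1906-2* and *Snora43*. The higher ones were *Taf9b*, *Hand1*, *Tmem254a* (5.34 and 16.9 FPKM) and *3830417A13Rik* (0.311 and 2.61 FPKM). *Grb10* was at 83.1 and 32.0 FPKM in ES cells, 299 and 42.8 FPKM at day 4 and 125 and 14.3 FPKM at day 6, so that its difference was wider after day 2.

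The streak and organizer genes differed in their course between tables. *T* was at 6.86 and 1.75 FPKM in ES cells, where the KO-labelled library was already lower, and at 0.0998 and 0.0914 FPKM at day 4. *Fgf8* was at 5.87 and 1.3 FPKM in ES cells and at 0.304 and 0.485 FPKM at day 4. *Cer1* was at 0.251 and 0.00710 FPKM in ES cells and at 0.0153 and 0.00927 FPKM at day 4, so that its peak was in the day 2 library labelled WT. *Foxa2* was at 0.207 and 0.0516 FPKM in ES cells but at 10.1 and 5.08 FPKM at day 4, when both libraries expressed it, and *Lhx1* was at 2.27 and 2.28 FPKM at day 4. *Dkk1* was at 0.115 and 0.0990 FPKM in ES cells and 0.0831 and 0.148 FPKM at day 4, near its level in the day 2 library labelled KO.

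**Figure D4:**
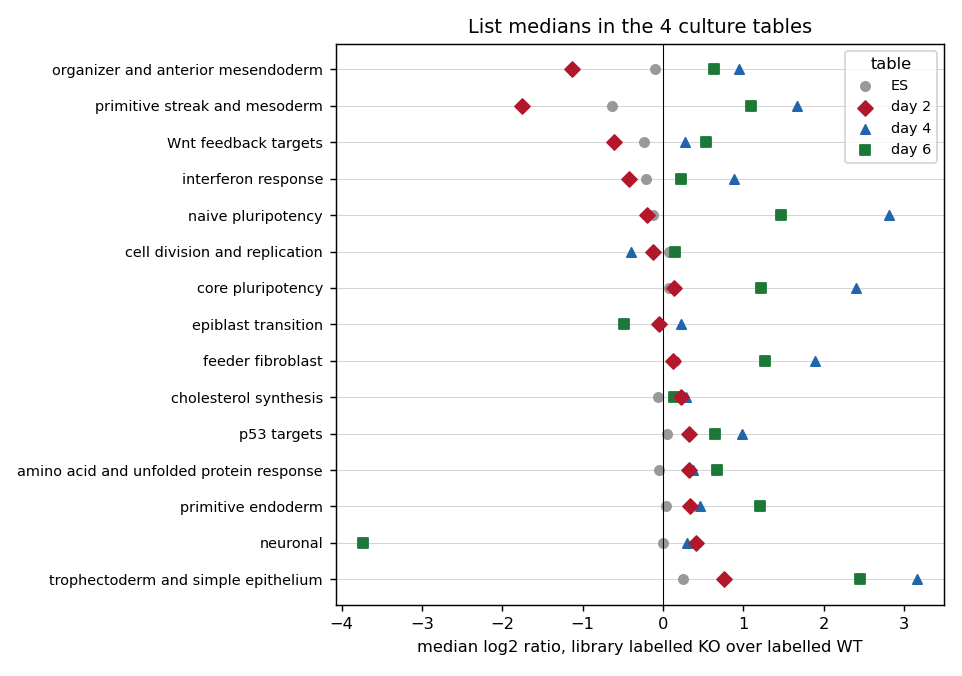
Median log2 ratio, KO-labelled library over WT-labelled, of the members of 15 gene lists in each of the 4 culture tables, members being those above 1 FPKM in at least 1 library of that table. From ES cells over days 2 and 4 to day 6 the organizer list is at -0.10, -1.13, 0.95 and 0.63, and the trophectoderm list at 0.25, 0.76, 3.16 and 2.45.

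The list medians in the other tables rest in part on other genes, since each table selects its own members. The organizer list had a median of -0.10 over 10 members in ES cells, 0.95 over 11 at day 4 and 0.63 over 16 at day 6, and the streak list had medians of -0.64, 1.67 and 1.09. The Wnt list was at -0.24 in ES cells, 0.28 at day 4 and 0.53 at day 6. The trophectoderm list kept 1 direction, at 0.25 in ES cells, 3.16 at day 4 and 2.45 at day 6. The core pluripotency list, near equality at day 2, was at 2.40 at day 4, and the neuronal list, at 0.41 at day 2, was at -3.73 at day 6.

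Loci were also chosen by how they differed between the 2 ES cell libraries and the 2 day 2 libraries together, which treats both labels alike. Of 162 symbols more than 4-fold higher in day 2 EBs, 64 were lower and 98 higher in the KO-labelled library, 23 and 32 of them past 2-fold, with a median of 0.22. With small RNAs and low levels left out, 115 remained, with 12 lower (10.4%) and 10 higher (8.70%) past 2-fold and a median of 0.18. The 12 included *Cer1*, *Foxa2*, *Dkk1*, *Lhx1* and *Shh*, and the 10 included *Prph*, *Atf3* and *Mir17hg*. Of all 11832 members without small RNAs 137 were lower and 104 higher past 2-fold. A gene high in 1 day 2 library alone can pass this choice, as *Cer1* did (4.40 and 0.0588 FPKM), so the choice itself favours calls both ways. Of the 122 symbols more than 4-fold lower in day 2 EBs, counted the same way, 35 were lower and 87 higher, with 5 and 7 past 2-fold and a median of 0.18. Among these, *Sp5* and *Gli2* were lower and *Wnt7b* and *Cryab* (0.541 and 1.43 FPKM) higher in the KO-labelled library.

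Along the genome chromosome 8 stood apart. Its 650 members had a median log2 ratio of -0.16 and 79.5% of them were lower in the KO-labelled library, while the medians of the other autosomes lay between -0.02 and 0.03. In ES cells it was likewise at -0.18, with 87.7% lower, but at day 4 it was at -0.0008 and at day 6 at -0.04. Only 4 of its members were lower and 2 higher past 2-fold. Chromosome 17 had 3.30% of its members lower and 0.471% higher past 2-fold. In its stretch from 30 to 40 Mb, 12 of 162 members were lower and 0 higher, among them *Ltb* (2.41 and 0.619 FPKM), *Psmb8*, an immunoproteasome gene (3.50 and 1.48 FPKM), and *H2-M5* (2.43 and 1.18 FPKM) of the major histocompatibility complex. The 12 are a mixed list. They include the small RNA loci *Snord52*, *Mir1894* and *Mir877*, listed at 0 in the KO-labelled library. The rest were *1700097N02Rik*, *Ly6g6d*, *Ubash3a*, *Dnah8*, *Gm11127* and *Lst1*. On chromosome 14, from 0 to 10 Mb, 5 of 18 members were lower and 0 higher, with a median of -0.74, those 5 being predicted or unnamed genes. On chromosome 13, from 20 to 30 Mb, the 71 members had a median of -0.30 with 1 past 2-fold each way, and the median of the chromosome 17 stretch was -0.04. On the X chromosome *Apln*, *Usp26* (1.15 and 0.292 FPKM) and the noncoding *Firre* (11.4 and 5.46 FPKM) were lower within 1 stretch of 10 Mb. These stretches were picked after their values were seen.

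**Figure D5:**
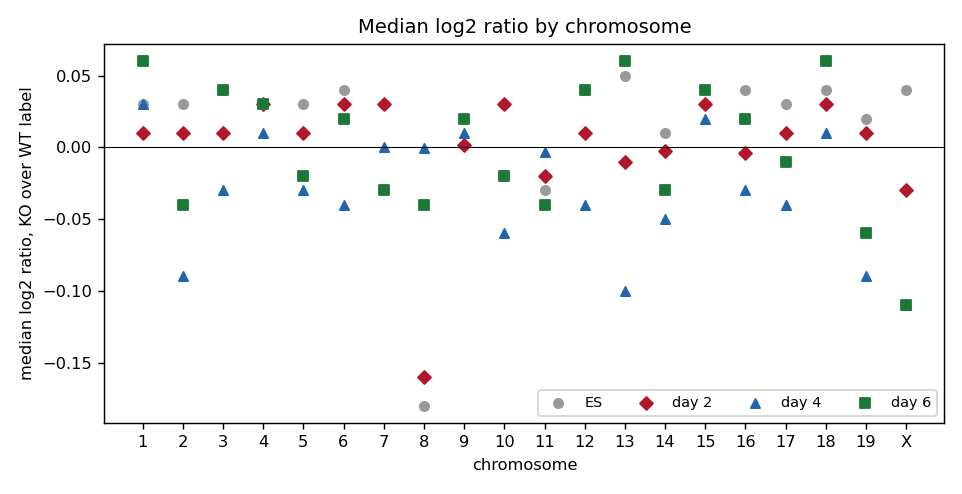
Median log2 ratio of the members of each chromosome, KO-labelled library over WT-labelled, in the 4 culture tables. Chromosome 8 lies at -0.16 at day 2 and at -0.18 in ES cells, below all other chromosomes in these tables, and near 0 at days 4 and 6.

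Finally, the start sites of the members were compared with TAF9B ChIP-seq peaks, which come from EBs of a later day and of another clone, HBG3. A peak midpoint lay within 500 bp of a start site for 18 of 123 lower symbols with a start site (14.6%, 95% Wilson interval 9.46 to 21.9) and for 9 of 111 higher symbols (8.11%, 4.32 to 14.7). Over all members it was 3263 of 10376 (31.4%, 30.6 to 32.3). The groups differ in level: the median of the mean FPKM was 2.09 for the lower, 3.03 for the higher and 11.1 for all members, and its part in these shares was not tested. Symbols with a peak included *Grb10*, *Mid1*, *Traip*, *Gli2* and *Lhx1* among the lower and *Ascl2*, *Stmn4* and *Ngfr* among the higher. The intervals cover counting error only.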

How the data were processed

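Total RNA of EBs of day 2 was made into poly-A libraries by the authors, and reads were mapped against RefSeq genes (mm9) with TopHat. The authors deposited FPKM values that Cuffdiff gave for 1 library per side, and these were used as deposited. TAF9B peaks were called by the authors with MACS after mapping with Bowtie, and the score of each peak in the deposited list was not used. Versions are not given in the sources used here. The authors' columns of Cuffdiff fold changes and p-values were not used.

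Log2 ratios were computed without a pseudocount over loci above 1 FPKM in at least 1 library, and a locus listed at 0 in 1 library counted past every fold. Of the members, 17 had the Cuffdiff status FAIL and were kept. Symbols came from RefSeq accessions, with the locus of highest mean FPKM for each symbol, and 147 member loci without a symbol were counted by accession. Starts are 1-based. Lists, members and alternatives were chosen with earlier results of these data known, and the list medians are descriptions with no test. The genes named are the 15 largest rises and falls above 1 FPKM in both libraries, the 10 largest above 10 FPKM in either, the 5 highest with at most 0.1 FPKM in the other library, list members past 2-fold, the highest and lowest ratio of each list, *Taf9b*, the markers and genes named for this day. Other list members and genes named were chosen after their values were seen. For 1 list the highest ratio is not reported here. A list or chromosome median was taken as moved by an alternative where it changed by 0.1 or more. Alternatives were other pseudocounts, filters, scalings, loci and fold limits. Promoter and miRNA sequences are RefSeq's. Software was matplotlib 3.10.9, statsmodels 0.14.6, scipy 1.17.1, pandas 2.3.3 and numpy 2.4.6 under Python 3.11.15, and the counting was tested on simulated data.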

Additional observations from a re-analysis of the deposited data

Results flagged for a closer look

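For 3 gene lists the median was at least 0.5 from 0, on the log2 scale, at day 2 and also at least 0.5 from 0, on the other side, at day 4 or day 6. Other lists also changed side with a median nearer to 0 at day 2, such as the neuronal list (0.41 at day 2 and -3.73 at day 6) and the naive pluripotency list (-0.20 at day 2 and 2.82 at day 4). No difference between tables was tested. The primitive streak and mesoderm list had a median log2 ratio, library labelled KO over labelled WT, of -1.76 over 8 members at day 2, against 1.67 over 7 members at day 4 and 1.09 over 11 at day 6. The organizer and anterior mesendoderm list was at -1.13 over 18 members at day 2, against 0.95 over 11 at day 4 and 0.63 over 16 at day 6. The Wnt feedback list was at -0.61 over 11 members at day 2 and at 0.53 over 12 at day 6. The first lists share *Fgf8*, *Gsc*, *Lhx1* and *Eomes*, each table has 1 library per side, and the members are those above 1 FPKM in that table.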

How the results depend on the processing

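No paired analysis was possible because each side is 1 library. Of the alternatives tried, none turned a direction past 2-fold, but a pseudocount or a filter cannot do so. With 1 FPKM added to both values 77 loci were lower and 71 higher past 2-fold, and among loci above 1 FPKM in both libraries 65 and 58. Without a filter the counts were 1565 and 1437, at a limit of 1.5-fold 513 and 449, and at 3-fold 82 and 55. Chosen after the data were seen, leaving out small RNA loci gave 137 and 104, and leaving out chromosome 8 gave 163 and 140. List medians moved by 0.1 or more in 16 of 232 cases. The 29 cases with 1 locus per symbol repeat the main setting, and centring, a shift of 0.0019, could not move a median by 0.1. With 1 FPKM added, the streak list was at -0.81, the organizer list at -0.77 and primitive endoderm at 0.19, and with 0.1 FPKM added the streak list was at -1.56. Among genes above 1 FPKM in both libraries the organizer list was at -0.03, the streak list at -0.56, the Wnt list at -0.46, the interferon list at -0.03 and the germline list at -0.20, with the genes under 1 FPKM in 1 library left out. Without a filter the streak list was at -0.53, trophectoderm at 0.64, interferon at -0.57, germline at -0.24, imprinted at 0.04, early neural at 0.32 and the Y-linked list at 0.52. The ratios of named genes were unmoved in 799 of 818 cases, but most of these could not move. Choosing loci leaves a gene's own ratio as it is, and centring shifts it by 0.0019. With 1 FPKM added 16 ratios moved and 89 did not, and with 0.1 FPKM added 3 moved and 102 did not. With the correction for transcript length 105 were unmoved. At 1.5-fold in ES cells, 29.8% of the lower and 16.8% of the higher day 2 symbols were so there, and within 1 kb 33.7% of all members had a TAF9B peak. With 1 library per side and about 31100000 fragments in the shallower one, differences of genes under 3 FPKM are the least certain.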
